A study of Homo sapiens with 12 samples.

Results

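The 41 genes described here encode proteins that fold, modify, translocate, degrade or export secretory proteins at the endoplasmic reticulum (ER). They were given as a list of gene symbols and looked up in an RNA sequencing table of 24181 loci. For each symbol the row on a primary chromosome with the highest mean was taken, and it was kept if its mean over the 12 libraries reached 1 FPKM. All 41 symbols were found and all 41 passed, against 11757 of the 24181 rows. The list was not chosen by a threshold on any difference between groups, although earlier results of these data were known when it was drawn up.

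Secretory proteins enter the ER through the SEC61 channel, lose their signal peptide, and fold with the help of chaperones, disulfide isomerases and lectins. Chains that fail to fold are drawn back to the cytosol and degraded, and folded cargo leaves in COPII vesicles. When unfolded chains accumulate, the unfolded protein response raises transcription of many of these genes through the sensors IRE1 (gene ERN1), ATF6 and PERK, and the same machinery is expanded when B cells become antibody-secreting plasma cells.

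The cells were MD901, an established human line of germinal centre type diffuse large B-cell lymphoma in which CREBBP, the gene of a histone acetyltransferase, is wild type. Each culture carried a scramble control hairpin or 1 of 3 short hairpin RNAs against CREBBP, which are named shCREBBP.572, shCREBBP.1027 and shCREBBP.3753. Each of the 4 groups had 3 libraries. All cultures were kept in IMDM with 10% serum, and RNA over 200 nt was made into stranded libraries after ribosomal RNA removal. A second field writes the number of shCREBBP.1027 with an added digit. The time after hairpin delivery, and whether the cells were pools or clones, are not given in the available labels. Whether replicates were separate cultures is not stated, so p-values measure the spread between these libraries only, which may be technical.

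CREBBP itself was not called lower with any hairpin. It stood at 13.7, 7.10 and 5.82 FPKM in the scramble libraries, at 11.4, 11.7 and 12.6 in those labelled shCREBBP.1027, at 5.92, 6.16 and 6.10 in those labelled shCREBBP.3753 and at 7.99, 7.53 and 6.91 in those labelled shCREBBP.572. The log2 differences from scramble were 0.47, -0.40 and -0.14, with adjusted p of 0.104, 0.177 and 0.697. FPKM are sequenced fragments divided by transcript length and library size, and differences were tested on log2(FPKM + 1) with limma, with Benjamini-Hochberg adjustment over all 11757 rows. Because the targeted gene does not check the labels, each hairpin name below stands for the libraries that carry that label. Read totals are not given, so the depth behind a value is unknown. Scramble replicate 1 had the lowest sum over the 41 genes among the scramble libraries, 4009 FPKM against 5007 and 4972, and scramble replicate 3 had a column total of 4978530 against 538076 to 722976 elsewhere, with an upper quartile of 27.6 FPKM in a range of 24.7 to 27.6. Spearman correlations within a group averaged 0.942 to 0.959 for the scramble libraries and 0.972 to 0.985 for the hairpin libraries. B-cell receptor genes were expressed in every library, with CD79A between 54.4 and 126 FPKM and CD79B between 76.5 and 164, while MS4A1 ranged from 0.591 to 8.66 FPKM. Of 9 T and NK cell markers found only PRF1 passed the filter, CD3D was 0 in every library, CD14 did not exceed 1.02 FPKM and EPCAM was 0.

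Several of these genes are textbook targets of ATF6 and XBP1, which bind ER stress response elements near the start site, so these elements were searched in the RefSeq promoter sequences of GRCh38.p14, which run from 250 bases before to 50 bases after a start site. Promoters were matched by symbol for 35 of the 41 genes. The missing ones were PDIA3, DERL1, DERL3, SPCS1, SEC24D and KDELR2. The ERSE was searched as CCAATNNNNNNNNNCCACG and the ERSE-II as ATTGG followed by any 1 base and CCACG, both on either strand. An ERSE was present in 6 of the 35 genes (17.1%), against 25 of 27305 symbols in the promoter table (0.0916%), and an ERSE-II in 3 of 35 (8.57%), against 19 symbols (0.0696%). The 9 genes with either element are shown because 8 or 9 of them fell with 2 of the hairpins and 1 with the other. Each line runs 5′ to 3′ on the gene's strand, capitals mark the element, and an element that begins CGTGG lies on the opposite strand. The coordinates are those of the printed bases.
HSPA5, chr9:125241379-125241421, minus strand: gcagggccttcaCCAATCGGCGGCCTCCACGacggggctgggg
HSP90B1, chr12:103930204-103930246, plus strand: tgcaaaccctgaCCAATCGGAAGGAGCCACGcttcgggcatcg
CRELD2, chr22:49918542-49918584, plus strand: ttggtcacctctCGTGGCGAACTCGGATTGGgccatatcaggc
PDIA6, chr2:10812841-10812883, minus strand: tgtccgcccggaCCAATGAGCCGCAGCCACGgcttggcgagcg
CALR, chr19:12938372-12938414, plus strand: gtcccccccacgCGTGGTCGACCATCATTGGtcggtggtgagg
CANX, chr5:179698766-179698808, plus strand: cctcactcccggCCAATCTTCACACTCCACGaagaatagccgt
HYOU1, chr11:119057262-119057296, minus strand: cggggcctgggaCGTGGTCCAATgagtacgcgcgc
SDF2L1, chr22:21642102-21642136, plus strand: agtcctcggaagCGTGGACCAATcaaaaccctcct
HERPUD1, chr16:56932013-56932047, plus strand: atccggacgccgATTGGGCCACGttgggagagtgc
The first 6 hold an ERSE and the last 3 an ERSE-II. HSP90B1 and HYOU1 each had a second copy of their element elsewhere in the same window. The CANX match lies before 1 annotated start site and spans another.

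Another element, the UPRE that XBP1 is known to bind, was searched as TGACGTGG on either strand. It was present in 3 of the 35 genes (8.57%), against 253 of the 27305 symbols (0.927%). The HYOU1 match overlaps 1 of its ERSE-II copies. The other two are printed because SSR3 had one of the largest differences of the list, while its partner SSR4 in the same complex had a modest one. In both, the capitals mark the element on the opposite strand.
SSR3, chr3:156554147-156554178, minus strand: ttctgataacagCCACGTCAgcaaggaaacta
SSR4, chrX:153794527-153794558, plus strand: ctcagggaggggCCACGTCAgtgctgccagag
A match describes letters in the window and was not tested for binding.

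Most of the 41 genes were lower than scramble in the libraries labelled shCREBBP.1027 and shCREBBP.572, and fewer in those labelled shCREBBP.3753. With shCREBBP.1027, 24 genes fell and 1 rose at an adjusted p under 0.05. The share that fell was 58.5%, where 22.7% of all tested rows fell and 16.5% rose. With shCREBBP.572, 26 fell and 0 rose, a share of 63.4% against 10.8% of all rows falling and 8.99% rising. With shCREBBP.3753, 13 fell and 1 rose, a share of 31.7% against 13.2% falling and 16.1% rising. The median log2 difference of the 41 genes was -0.40, -0.17 and -0.46 in the order shCREBBP.1027, shCREBBP.3753, shCREBBP.572, beside -0.03, 0.03 and 0.01 over all tested rows. In bulk RNA, fewer cells of a type and less RNA per cell cannot be told apart, and the 3 comparisons use the same scramble libraries. The count for shCREBBP.3753 depended on the libraries and the fit: without scramble replicate 1 it was 20 of 41 beside 16% of all rows, with array weights 25 beside 20.8%, and in a fit of only the 6 libraries compared 8 beside 8.44%.

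**Figure D1:**
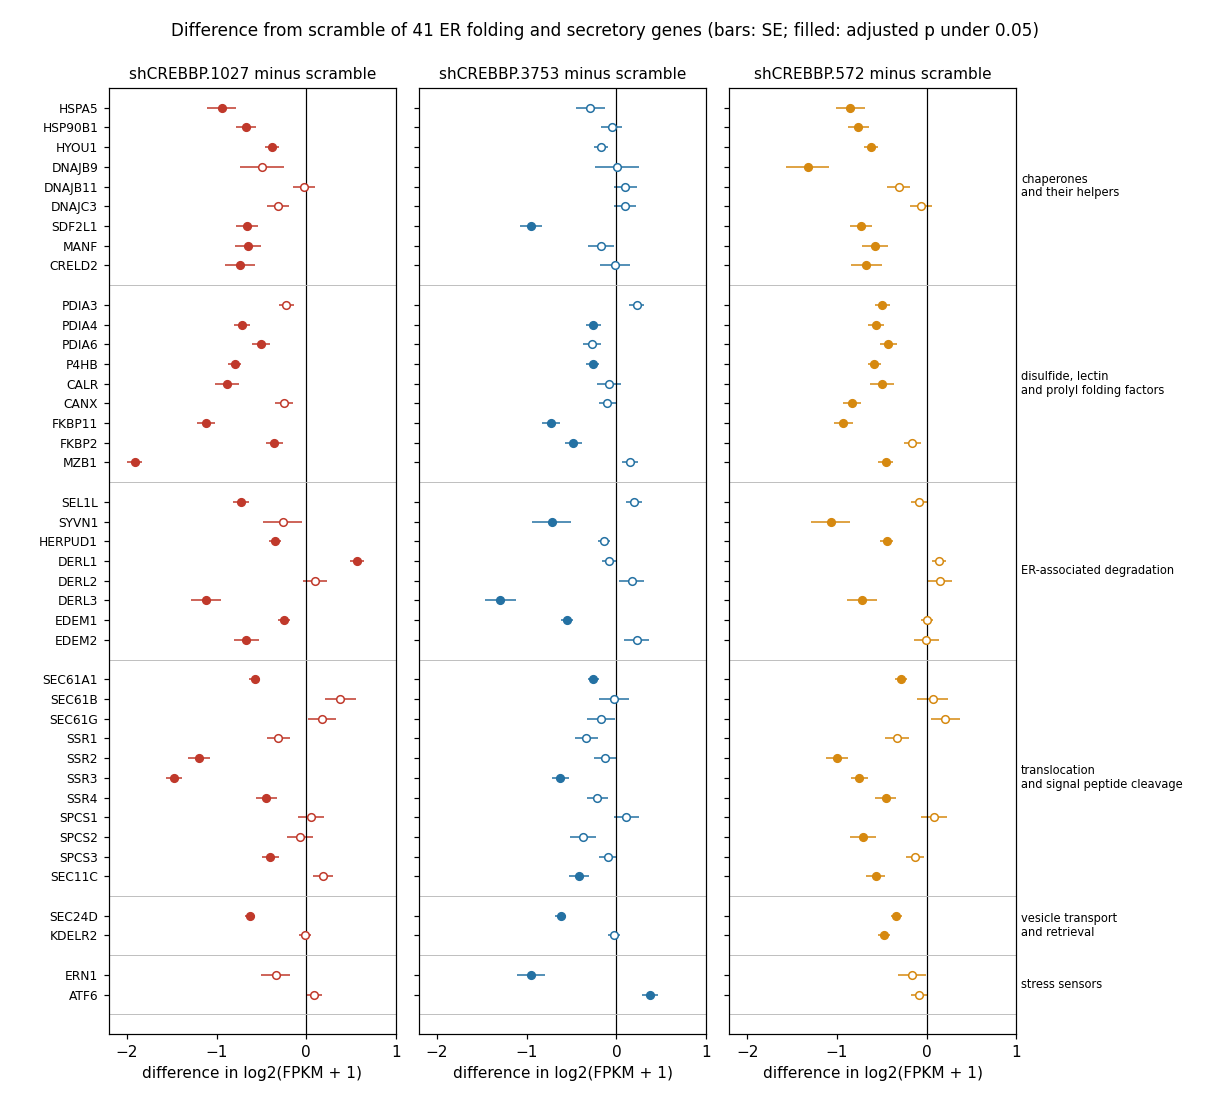
The difference from scramble in log2(FPKM + 1) of each of the 41 genes (horizontal axis), grouped by role, with 1 panel for each hairpin label. Bars are standard errors and filled points have a limma adjusted p under 0.05; most filled points lie left of 0, with the fewest, 14, in the shCREBBP.3753 panel.

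The chaperones of the ER lumen and their helpers fell with shCREBBP.1027 (6 of 9, 66.7%) and shCREBBP.572 (7 of 9, 77.8%). With shCREBBP.3753, 1 of 9 fell (11.1%). The shares of all tested rows that fell were 22.7%, 10.8% and 13.2% in that order, so the last count was near the background. HSPA5 (deposited interval hg19 chr9:127997127-128003666), the ER Hsp70 chaperone also called BiP, had 159, 113 and 92.5 FPKM in the scramble libraries. It was at 66.0, 56.1 and 62.3 with shCREBBP.1027, at 100, 98.6 and 91.9 with shCREBBP.3753 and at 71.2, 57.2 and 68.5 under shCREBBP.572. The first and last of these sets lay wholly below scramble, and the middle one overlapped it. HSPA5 fell by 0.94 (SE 0.16, adjusted p = 0.00081) and by 0.85 (SE 0.16, adjusted p = 0.00366) on the log2 scale with shCREBBP.1027 and shCREBBP.572. HSP90B1, the ER Hsp90 also called GRP94, averaged 62.2% of scramble under shCREBBP.1027, 95.5% under shCREBBP.3753 and 58.4% under shCREBBP.572. Its row also carries the name MIR3652. HYOU1, a large Hsp70 relative that exchanges the nucleotide of BiP, averaged 76.6%, 88.4% and 64.7%. MANF and CRELD2, small ER proteins induced by unfolded chains, were likewise nearest to scramble with shCREBBP.3753: MANF averaged 62.5%, 87.7% and 65.6% of scramble, and CRELD2 57.4%, 96.2% and 60.4%. None of these 5 was called with shCREBBP.3753, and all 5 were called with the other two labels.

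SDF2L1 (hg19 chr22:21996542-21998588), which works in a complex with BiP and the cochaperone DNAJB11, departed from that pattern. In scramble it was at 27.5, 35.6 and 32.6 FPKM, and it was at 21.5, 20.1 and 17.8 with shCREBBP.1027, at 16.7, 15.1 and 16.0 with shCREBBP.3753 and at 20.8, 20.2 and 15.7 under shCREBBP.572. All 9 hairpin libraries lay below all 3 scramble libraries. It fell by 0.66, 0.95 and 0.73 on the log2 scale (SE 0.12 each; adjusted p = 0.00128, 0.00023 and 0.00166), and it was the only one of the 9 chaperone genes called with shCREBBP.3753. The difference between the hairpins was not called for SDF2L1 (F test, adjusted p = 0.116).

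DNAJB9 (hg19 chr7:108201734-108279453), a BiP cochaperone that is known to hold IRE1 inactive, was at 14.5, 20.1 and 17.0 FPKM in scramble, at 11.9, 12.6 and 10.97 with shCREBBP.1027 and at 17.5, 16.3 and 17.4 with shCREBBP.3753. With shCREBBP.572 it was at 10.9, 5.21 and 4.05, below every other library. Only the last difference was called, a fall by 1.33 (SE 0.24, adjusted p = 0.00301), and the shCREBBP.572 libraries were also lower than those labelled shCREBBP.3753, by a log2 difference of -1.33 (adjusted p = 0.00157). With shCREBBP.1027 the difference was -0.50 (adjusted p = 0.13), and it was called without shCREBBP.572 replicate 1 (adjusted p = 0.00823), in a fit of only the 6 libraries compared (0.0276) and with array weights (-0.67, adjusted p = 0.0306). The deposited interval of DNAJB9 is wide and may hold more than the gene. The cochaperones DNAJB11 and DNAJC3 were called with no hairpin, and their averages lay between 78.2% and 107% of scramble.

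**Figure D2:**
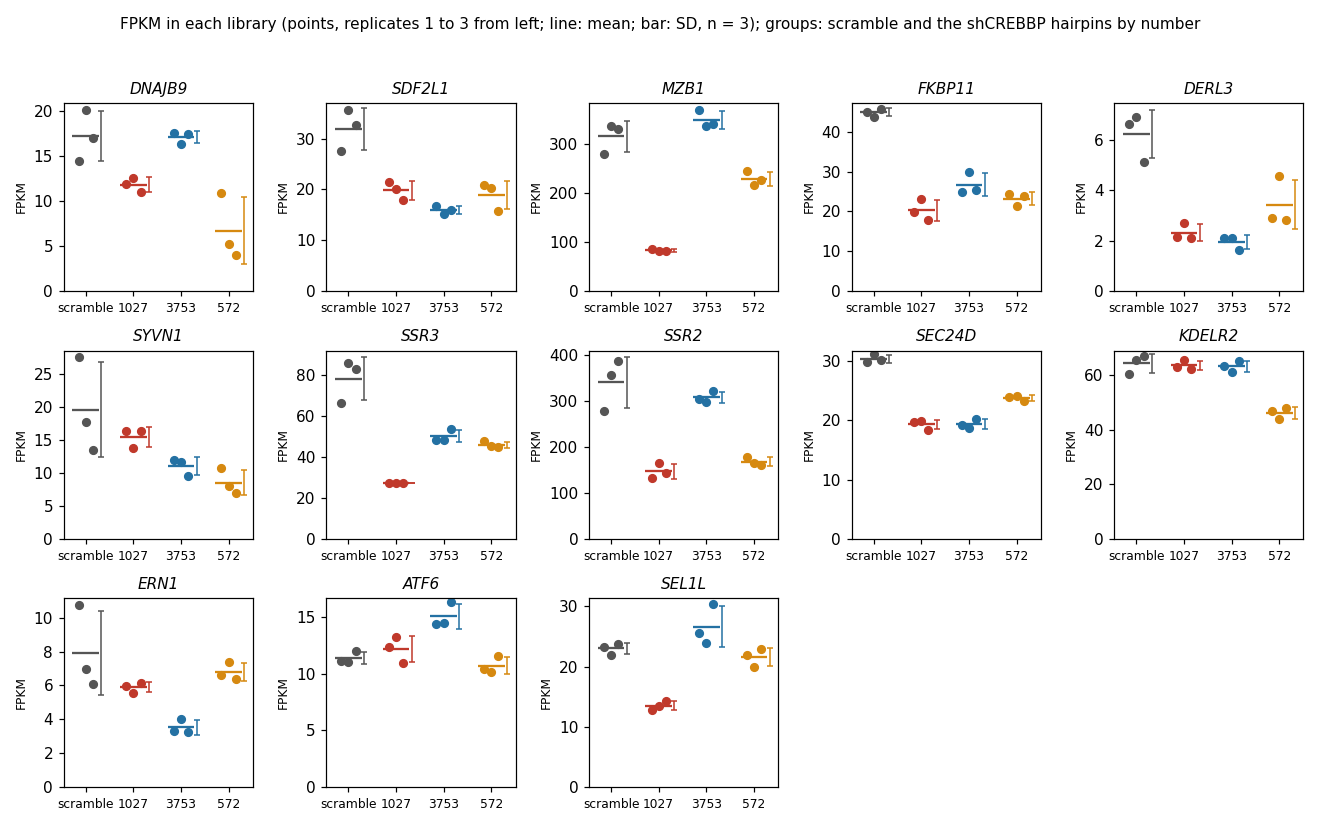
FPKM in each library (vertical axes, starting at 0) of 13 genes, with points for replicates 1 to 3 from the left, a line at the mean and a bar for the SD (n = 3). SDF2L1, FKBP11, DERL3, SSR3 and SEC24D are below scramble in every hairpin library, MZB1 and SEL1L are lowest with shCREBBP.1027, and DNAJB9 and KDELR2 with shCREBBP.572.

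Among the disulfide isomerases, lectins and prolyl isomerases, 7 of 9 fell with shCREBBP.1027 (77.8%), 4 of 9 with shCREBBP.3753 (44.4%) and 8 of 9 with shCREBBP.572 (88.9%). The shares of all tested rows that fell were 22.7%, 13.2% and 10.8%. P4HB, the disulfide isomerase PDI, fell with every hairpin and averaged 57.2%, 82.9% and 66.4% of scramble. PDIA4, another isomerase of the family, did so too, at 60.2%, 83.1% and 66.8%, with an adjusted p of 0.049 for shCREBBP.3753. PDIA3, the isomerase that works with the lectin chaperones, was called only with shCREBBP.572, at 70.6% of scramble, and was at 117% with shCREBBP.3753 (adjusted p = 0.0596). PDIA6 averaged 70.03%, 81.8% and 73.9%, the middle value not called. The lectin chaperones, which retain glycoproteins until they are folded, differed from each other in which hairpin gave the lower level. CALR averaged 53.3%, 92.9% and 69.8% of scramble and was lower with shCREBBP.1027 than with shCREBBP.572 (log2 difference of shCREBBP.572 minus shCREBBP.1027 0.39, adjusted p = 0.0341). CANX averaged 83.7%, 92.7% and 55.8% and was lower with shCREBBP.572 (difference -0.58, adjusted p = 0.00064). The CANX row also carries the name MAML1.

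FKBP11 (hg19 chr12:49297893-49320113), a prolyl isomerase abundant in secretory cells, was at 45.0, 43.8 and 45.8 FPKM in scramble. It was at 19.9, 23.1 and 17.8 with shCREBBP.1027, at 24.8, 29.998 and 25.3 with shCREBBP.3753 and at 24.3, 21.3 and 23.9 under shCREBBP.572. Scramble was tight and none of the 9 hairpin libraries reached it. FKBP11 fell by 1.12, 0.73 and 0.93 (SE 0.10 each; adjusted p = 1.21e-05, 0.000414 and 0.000114). FKBP2, a related isomerase, averaged 77.8%, 71.1% and 89.1% of scramble and was not called with shCREBBP.572.

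MZB1, an ER cochaperone of B and plasma cells that assists antibody assembly, had the smallest p of the 41 genes in the F test between hairpins (adjusted p = 1.26e-07). The locus, on hg19 at chr5:138723257-138739776, also carries the name PROB1. It was at 280, 336 and 329 FPKM in scramble, at 85.9, 80.8 and 81.3 with shCREBBP.1027, at 369, 337 and 339 with shCREBBP.3753 and at 244, 217 and 226 under shCREBBP.572. The 3 hairpin sets did not overlap each other. MZB1 fell by 1.91 with shCREBBP.1027 (SE 0.09, adjusted p = 2.05e-07) and by 0.46 with shCREBBP.572 (SE 0.09, adjusted p = 0.00352), while the difference with shCREBBP.3753 was 0.15 (adjusted p = 0.219). With shCREBBP.1027 the mean was 26.2% of scramble.

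ER-associated degradation genes fell in 5 of 8 cases (62.5%) and rose in 1 (12.5%) with shCREBBP.1027. They fell in 3 of 8 with shCREBBP.3753 and in 3 of 8 with shCREBBP.572 (37.5% each). The shares of all tested rows that fell were 22.7%, 13.2% and 10.8%, and 16.5% rose with shCREBBP.1027. The core ligase pair moved with different hairpins. SEL1L (hg19 chr14:81937891-82000205), the adaptor of the ligase, was at 23.3, 22.0 and 23.8 FPKM in scramble, at 12.7, 13.5 and 14.2 with shCREBBP.1027, at 25.5, 23.9 and 30.5 with shCREBBP.3753 and at 22.0, 20.0 and 23.0 under shCREBBP.572. Only the first hairpin set lay below scramble: SEL1L fell by 0.73 (SE 0.09, adjusted p = 0.000109), and the other differences were 0.20 and -0.09 (adjusted p = 0.134 and 0.575). SYVN1 (hg19 chr11:64888099-64902003), the ubiquitin ligase HRD1 itself, was at 27.6, 17.8 and 13.5 FPKM in scramble, a wide spread. It was at 16.4, 13.8 and 16.4 with shCREBBP.1027, at 11.97, 11.7 and 9.57 with shCREBBP.3753 and at 10.7, 7.99 and 6.96 under shCREBBP.572. It fell by 1.07 with shCREBBP.572 (SE 0.22, adjusted p = 0.00517) and by 0.72 with shCREBBP.3753 (SE 0.22, adjusted p = 0.027). The second call was lost, with a difference of -0.46 (adjusted p = 0.0665), without scramble replicate 1, and also when any 1 of the shCREBBP.3753 libraries was left out (adjusted p from 0.0501 to 0.0989).

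The derlins, membrane proteins through which misfolded chains are drawn out of the ER, did not move together. DERL3 (hg19 chr22:24129150-24181204), at 6.63, 6.92 and 5.13 FPKM in scramble, was at 2.15, 2.71 and 2.10 with shCREBBP.1027, at 2.10, 2.10 and 1.61 with shCREBBP.3753 and at 2.88, 4.55 and 2.83 under shCREBBP.572. No hairpin library reached the scramble range. The deposited interval of DERL3 is wide and may hold more than the gene. DERL3 fell by 1.12, 1.29 and 0.72 (SE 0.17 each; adjusted p = 0.000374, 0.000282 and 0.0117), and it had the lowest level of the 41 genes. DERL1 was the single gene that rose with shCREBBP.1027, by a log2 difference of 0.56 (SE 0.08, adjusted p = 0.000197), and it was at 94.6% and 110% of scramble with the others. DERL2 was called with no hairpin. EDEM1 and EDEM2, which trim mannose from glycoproteins bound for degradation, both fell with shCREBBP.1027, to 83.8% and 59.6% of scramble. With shCREBBP.3753 EDEM1 fell to 67.4% and EDEM2 was at 117% (adjusted p = 0.242). HERPUD1, a stress-induced scaffold of the ligase, averaged 78.1%, 90.7% and 73.0%, and only the value for shCREBBP.3753 was not called.

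At the translocation step, of the 11 genes, 5 fell under shCREBBP.1027 (45.5%), 3 under shCREBBP.3753 (27.3%) and 6 under shCREBBP.572 (54.5%). The shares of all tested rows that fell were 22.7%, 13.2% and 10.8%. SEC61A1, the pore subunit, fell with every hairpin and averaged 66.7%, 83.4% and 81.9% of scramble. The small subunits SEC61B and SEC61G were called with none. The translocon-associated protein (TRAP) complex, which sits at the channel and aids the insertion of some chains, held the genes with the largest falls of the 11, SSR3 and SSR2. SSR3 was at 66.2, 85.7 and 83.0 FPKM in scramble, at 27.3, 27.4 and 27.2 with shCREBBP.1027, at 48.5, 48.5 and 53.6 with shCREBBP.3753 and at 47.6, 45.2 and 44.8 under shCREBBP.572. Every hairpin library was below every scramble library. SSR3 fell by 1.48 (SE 0.09, adjusted p = 9.55e-07), by 0.62 (SE 0.09, adjusted p = 0.000608) and by 0.75 (SE 0.09, adjusted p = 0.000234). Its deposited interval, hg19 chr3:155838337-156272973, is wide and may hold more than the gene.

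SSR2 (hg19 chr1:155978809-155990758), another TRAP subunit, was at 278, 356 and 387 FPKM in scramble, at 133, 166 and 143 with shCREBBP.1027, at 304, 298 and 322 with shCREBBP.3753 and at 179, 164 and 162 under shCREBBP.572. The shCREBBP.3753 libraries lay inside the scramble range and the others below it. SSR2 fell by 1.20 (SE 0.12, adjusted p = 2.28e-05) with shCREBBP.1027 and by 1.00 (SE 0.12, adjusted p = 0.000219) with shCREBBP.572. With shCREBBP.3753 the difference was -0.13 (adjusted p = 0.442), and it was called, at -0.27 (adjusted p = 0.0431), without scramble replicate 1. SSR4 averaged 72.8%, 86.0% and 72.3% of scramble and was called with the same pair. SSR1 averaged 79.6%, 77.9% and 78.9% and was called with none. The signal peptidase subunits moved with different hairpins: SPCS3 fell with shCREBBP.1027 to 74.8%, SPCS2 with shCREBBP.572 to 58.8%, SPCS1 with none, and the catalytic SEC11C fell with shCREBBP.3753 and shCREBBP.572, to 74.1% and 66.6%, and was at 114% with shCREBBP.1027 (adjusted p = 0.197).

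For export and retrieval, SEC24D (hg19 chr4:119643360-119757332), a COPII coat protein that selects cargo, was at 29.7, 31.1 and 30.2 FPKM in scramble. It was at 19.6, 19.8 and 18.4 with shCREBBP.1027, at 19.1, 18.7 and 20.3 with shCREBBP.3753 and at 23.9, 24.1 and 23.2 under shCREBBP.572. Each set was tight and below scramble, and the last was the highest of them. SEC24D fell by 0.63, 0.62 and 0.34 (SE 0.06 each; adjusted p = 1.8e-05, 5.25e-05 and 0.00259). KDELR2 (hg19 chr7:6500712-6523849), a receptor that returns escaped ER chaperones such as BiP from the Golgi, was at 60.6, 65.8 and 67.1 FPKM in scramble, at 63.1, 65.6 and 62.5 with shCREBBP.1027, at 63.6, 61.2 and 65.1 with shCREBBP.3753 and at 46.8, 43.9 and 47.9 under shCREBBP.572. It fell only in the last set, by 0.47 (SE 0.07, adjusted p = 0.000506).

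The stress sensors on the list, ERN1 and ATF6, were not called with shCREBBP.1027 or shCREBBP.572. EIF2AK3, the gene of the sensor PERK, is not on the list. It fell by 0.36 with shCREBBP.572 (adjusted p = 0.0252). Its differences with shCREBBP.1027 and shCREBBP.3753 were -0.24 and 0.12 (adjusted p = 0.0778 and 0.379). ERN1 (hg19 chr17:62118479-62207931), which encodes IRE1, was at 10.8, 6.97 and 6.08 FPKM in scramble, at 5.97, 5.55 and 6.15 with shCREBBP.1027, at 3.31, 4.02 and 3.23 with shCREBBP.3753 and at 6.61, 7.41 and 6.38 under shCREBBP.572. The shCREBBP.3753 libraries were below all others: ERN1 fell by 0.95 (SE 0.16, adjusted p = 0.00131). The high scramble replicate 1 weighed on the other differences, which were -0.34 and -0.16 with it and -0.13 and 0.05 without it. With shCREBBP.1027 the difference was called, at -0.49 (adjusted p = 0.0302), without scramble replicate 3. ATF6 (hg19 chr1:161736034-161933860), at 11.1, 11.03 and 12.04 FPKM in scramble, was at 12.4, 13.2 and 10.9 with shCREBBP.1027, at 14.4, 14.5 and 16.4 with shCREBBP.3753 and at 10.4, 10.2 and 11.6 under shCREBBP.572. It rose with shCREBBP.3753, by a log2 difference of 0.37 (SE 0.09, adjusted p = 0.0084), the 1 gene of the list that did. XBP1, whose mRNA IRE1 splices, was not called with any hairpin (log2 differences 0.10, 0.20 and -0.07). FPKM per locus do not show splicing.

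The hairpin labels differed from each other in most of the genes. An F test over the 3 hairpins called 33 of 41 (80.5%), beside 56.4% of all tested rows, and the 8 not called were SDF2L1, PDIA6, DERL2, SEC61B, SEC61G, SSR1, SSR4 and SPCS1. Between shCREBBP.3753 and shCREBBP.1027, 19 genes (46.3%) were higher and 4 (9.76%) lower with shCREBBP.3753, beside 25.3% and 15.3% of all rows. Between shCREBBP.572 and shCREBBP.3753, 5 (12.2%) were higher and 18 (43.9%) lower with shCREBBP.572, beside 14.7% and 18.0% of all rows. Between shCREBBP.572 and shCREBBP.1027, 10 (24.4%) were higher and 9 (22.0%) lower with shCREBBP.572. These shares were near the 23.9% and 17.6% of all rows. The summed level of the 41 genes ran from 3061 to 3357 FPKM under shCREBBP.1027, from 4113 to 4239 under shCREBBP.3753 and from 3203 to 3396 under shCREBBP.572. CREBBP was higher in each shCREBBP.1027 library than in any other hairpin library, and it was lower with shCREBBP.3753 than with shCREBBP.1027 (log2 difference -0.87, adjusted p = 0.00678). Its part in these differences was not tested.

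The 9 genes whose promoter holds an ERSE or ERSE-II, printed above, fell in 8 of 9 cases with shCREBBP.1027, in 1 of 9 with shCREBBP.3753 and in 9 of 9 with shCREBBP.572, and none rose. Of all tested rows, 22.7%, 13.2% and 10.8% fell in the same order. The median log2 differences of the 9 genes were -0.66, -0.14 and -0.67. The exception with shCREBBP.1027 was CANX, and the single fall with shCREBBP.3753 was SDF2L1. Compared directly, 7 of the 9 were lower with shCREBBP.572 than with shCREBBP.3753, beside 18.0% of all rows. The 26 genes with neither element fell in 14, 10 and 13 cases, with medians of -0.38, -0.19 and -0.32, and the 6 genes with no promoter in the table in 2, 2 and 4 cases. Outside the list, 35 symbols had either element and 16 of them had a tested row. Of these 16, 7, 4 and 6 fell and 0, 1 and 1 rose in that order of hairpins. Of all tested rows, 22.7%, 13.2% and 10.8% fell and 16.5%, 16.1% and 8.99% rose. The medians of the 16 were -0.05, 0.03 and -0.09. The difference between genes with and without an element was not tested, since these genes were chosen with earlier results known. SSR3 and SSR4, which have a UPRE and no ERSE, had the strong and the modest falls described above.

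**Figure D3:**
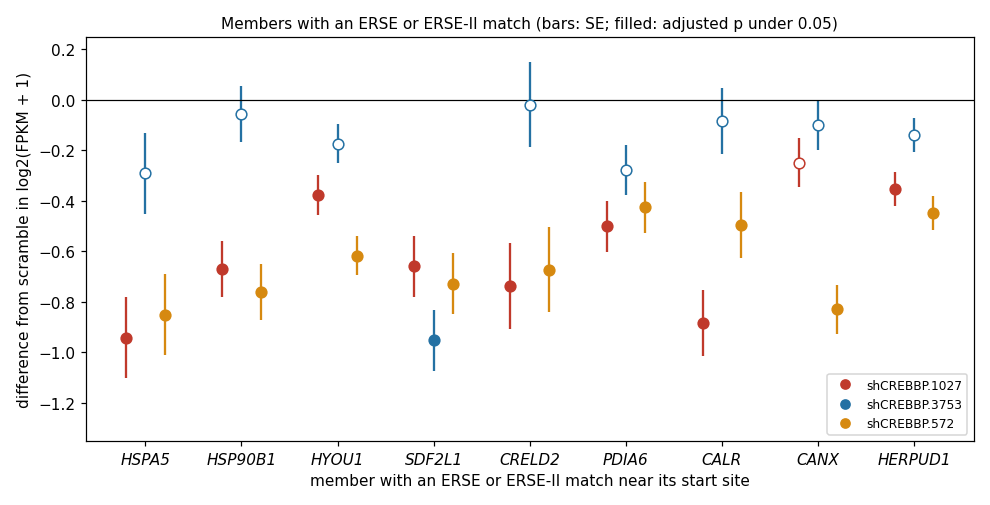
The difference from scramble in log2(FPKM + 1) (vertical axis) of the 9 genes with an ERSE or ERSE-II match, for each hairpin label, with standard errors as bars and filled points for a limma adjusted p under 0.05. With shCREBBP.3753 only SDF2L1 is filled, and with shCREBBP.572 all 9 are.

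Other genes of the same pathways were counted beside all tested rows, of which 22.7%, 13.2% and 10.8% fell and 16.5%, 16.1% and 8.99% rose with shCREBBP.1027, then shCREBBP.3753, then shCREBBP.572. A difference between any of these lists and the 41 genes was not tested. Of 18 other genes of oxidative folding and peptide isomerisation, 8 fell (44.4%) and 2 rose (11.1%) with shCREBBP.1027. With shCREBBP.3753, 3 fell and 3 rose, near the shares of all rows (16.7% each way). With shCREBBP.572, 4 fell (22.2%) and 0 rose. UGGT1, which senses incompletely folded glycoproteins, fell by 0.66, 0.40 and 0.34 (adjusted p = 2.65e-05, 0.00152 and 0.00494). SIL1, a nucleotide exchange factor of BiP, was at 6.21, 6.98 and 6.48 FPKM in scramble and fell by 0.46 with shCREBBP.1027 and by 0.50 with shCREBBP.572. With shCREBBP.3753 it was at 11.9, 11.04 and 11.7 FPKM and rose by a log2 difference of 0.73 (adjusted p = 0.00304). ERO1L, the oxidase that recharges PDI, fell by 0.65 and by 0.50 with shCREBBP.1027 and shCREBBP.572 (adjusted p = 0.000793 and 0.00878).

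Of 10 genes of N-glycosylation, 4 fell (40%) and 1 rose (10%) with shCREBBP.1027. With shCREBBP.3753, 0 fell and 2 rose (20%), and with shCREBBP.572, 3 fell (30%) and 0 rose. RPN2, a subunit of the oligosaccharyltransferase, fell by 0.72 with shCREBBP.1027 (adjusted p = 0.000406). Of 18 other genes of ER-associated degradation, 4 fell (22.2%) and 3 rose (16.7%) with shCREBBP.1027, both near the shares of all rows. With shCREBBP.3753, 0 fell and 5 rose (27.8%). With shCREBBP.572, 2 fell (11.1%, near the share of all rows) and 0 rose. OS9, a lectin of the SEL1L complex, rose with shCREBBP.3753 by a log2 difference of 0.55 (adjusted p = 0.00111). Of 14 other targeting and translocation genes, 2, 2 and 2 fell and 3, 4 and 2 rose in the same order of hairpins. The share that fell was 14.3% with each, below or near the shares of all rows. The shares that rose were 21.4%, 28.6% and 14.3%. SRP14, a protein of the signal recognition particle, rose with each, by 0.98, 0.64 and 0.56. Of 32 other genes of COPII, COPI and cargo receptors, 9, 4 and 10 fell (28.1%, 12.5% and 31.25%) and 3, 5 and 2 rose (9.38%, 15.6% and 6.25%). Both shares with shCREBBP.3753 were near those of all rows. SEC24A, a paralog of SEC24D, fell by 0.25, 0.41 and 1.02, with the largest fall under shCREBBP.572.

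Chaperones outside the ER were compared as the cytosolic and mitochondrial set. Of 26 tested, 4 fell with each hairpin, a share of 15.4% beside 22.7%, 13.2% and 10.8% of all rows and so near or below the background, and 2, 0 and 0 rose, with medians of -0.02, -0.11 and -0.14. HSPB1, a small heat shock protein, fell by 0.92, 0.40 and 1.14 (adjusted p = 6.42e-05, 0.0156 and 4.05e-05). The largest difference of the 26 was that of DNAJA2, which fell by 1.51 with shCREBBP.572 (adjusted p = 1.28e-05). DNAJA2 was not called with shCREBBP.1027 or shCREBBP.3753 (differences 0.02 and 0.14, adjusted p = 0.931 and 0.409).

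In the PERK and ATF4 branch of the stress response, 6 of 10 tested genes rose with shCREBBP.1027 (60%, beside 16.5% of all rows) and 4 with shCREBBP.572 (40%, beside 8.99%). With shCREBBP.3753 1 rose, 10% beside 16.1% of all rows, which is no result about these genes. None of the 10 was called lower with any hairpin, with median log2 differences of 0.46, 0.13 and 0.23. CEBPB, a transcription factor, stood at 3.03, 4.86 and 4.38 FPKM in scramble and reached 10.3, 9.16 and 8.73 under shCREBBP.1027, a rise by 1.04 on the log2 scale (adjusted p = 9.1e-05). CHAC1, a glutathione-degrading enzyme, rose by 0.96 with shCREBBP.1027 (adjusted p = 0.000488). ASNS, asparagine synthetase, rose by 0.72 with shCREBBP.572 (adjusted p = 0.000155), and SESN2, a stress-induced regulator of nutrient signalling, rose with every hairpin, by 0.42, 0.57 and 0.78.

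**Figure D4:**
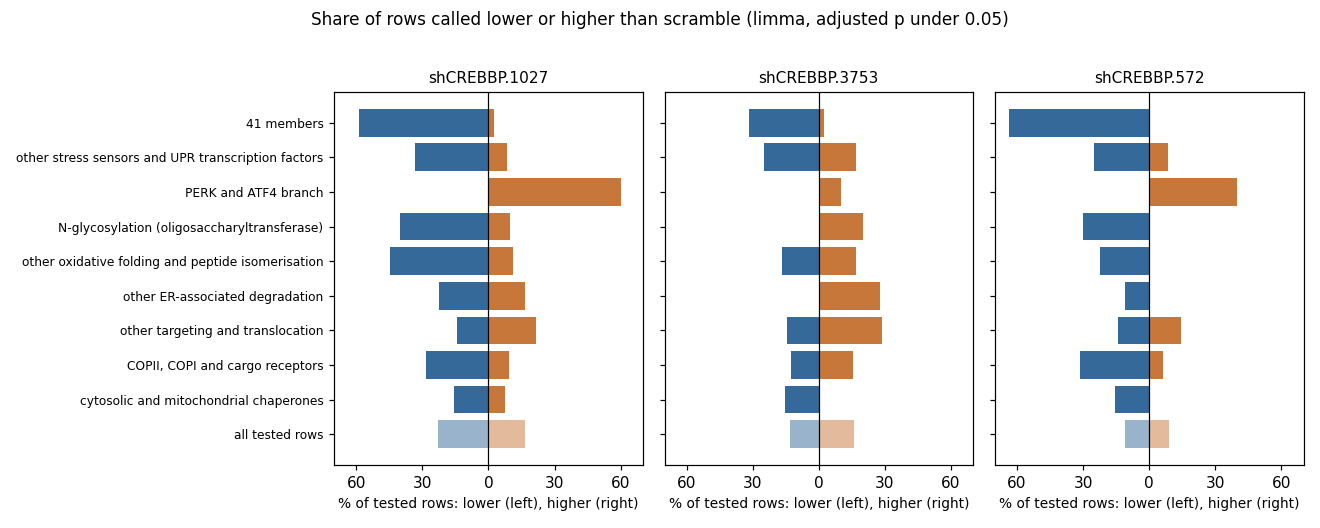
Share of tested rows (horizontal axis, percent) that were called lower (left) or higher (right) than scramble for the 41 genes, for 8 other gene lists and for all tested rows, with 1 panel for each hairpin label. The bar of the 41 genes on the lower side is longer than that of all tested rows in every panel, and the PERK and ATF4 branch has bars on the higher side only.

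Among 12 other stress sensors and transcription factors of the unfolded protein response, 4, 3 and 3 fell and 1, 2 and 1 rose. The shares that fell were 33.3%, 25% and 25%, beside 22.7%, 13.2% and 10.8% of all rows. The shares that rose were 8.33%, 16.7% and 8.33%, beside 16.5%, 16.1% and 8.99%, so below or near those of all rows. BHLHA15, the secretory-cell transcription factor MIST1, was at 6.76, 9.28 and 9.74 FPKM in scramble, at 0.925, 1.28 and 0.654 with shCREBBP.1027, at 4.001, 2.76 and 3.18 with shCREBBP.3753 and at 2.95, 3.71 and 2.73 under shCREBBP.572. All hairpin libraries were below scramble, those labelled shCREBBP.1027 the most. It fell by 2.29, 1.15 and 1.21 (SE 0.18 each; adjusted p = 3.42e-06, 0.00076 and 0.000714). CREB3L2, an ER-anchored factor, fell by 1.17 with shCREBBP.3753 and by 0.82 with shCREBBP.572 (adjusted p = 0.0058 and 0.0433), from scramble values of 22.3, 9.86 and 9.54 FPKM that were themselves far apart.

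Of 11 tested plasma cell regulators and immunoglobulin genes, 5, 6 and 4 fell (45.5%, 54.5% and 36.4%, beside 22.7%, 13.2% and 10.8% of all rows) and 0 rose with any hairpin. PRDM1, the master regulator of plasma cells, fell by 0.38 with shCREBBP.1027 (adjusted p = 0.0374) and by 0.93 with shCREBBP.3753 (adjusted p = 0.00045), and its difference with shCREBBP.572 was -0.27 (adjusted p = 0.175). IRF4 fell by 0.28 and 0.52 with the first pair (adjusted p = 0.00289 and 0.000121), and its difference with shCREBBP.572 was -0.13 (adjusted p = 0.148). Both were lowest with shCREBBP.3753, and their part in the differences of the 41 genes was not tested. SDC1, the plasma cell surface marker CD138, fell by 1.502 with shCREBBP.1027 only (adjusted p = 4.17e-05), and IGJ, the joining chain of secreted antibody, fell by 1.21 with shCREBBP.572 (adjusted p = 0.000183) and by 0.61 with shCREBBP.3753 (adjusted p = 0.00828). Of 7 tested B-cell and germinal centre markers, 4, 1 and 4 fell and 0, 2 and 0 rose. The 1 that fell with shCREBBP.3753 is 14.3%, near the 13.2% of all rows. MS4A1, the antigen CD20, fell by 2.08 with shCREBBP.572 (adjusted p = 2.4e-06). The summed level of these markers ran from 351 to 419 FPKM in scramble, from 336 to 354 under shCREBBP.1027, from 466 to 497 under shCREBBP.3753 and from 291 to 308 under shCREBBP.572. The part of these shifts in the differences of the 41 genes was not tested. PRF1, which encodes perforin, rose with shCREBBP.572 by 0.75 (adjusted p = 0.000182). It was the only T and NK marker whose mean reached 1 FPKM, so it makes up most of their summed level. That sum was 31.2 to 38.9 FPKM in scramble and 56.6 to 62.8 with shCREBBP.572. The summed myeloid markers were 1.68 to 3.58 FPKM in scramble and did not exceed 5.05 in any hairpin library.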

How the data were processed

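RNA was sequenced in 12 MD901 libraries, 3 for each of 3 hairpins and the scramble control. The authors deposited 1 table with a value per locus and library. The values were read as FPKM from their behaviour and because the submitters' processing notes name Cufflinks, with CASAVA 1.8, TopHat2 and hg19; the table does not state its unit. The annotation and any use of strand are not stated in the available sources, and genes sharing a row cannot be separated. FPKM carry no counts, so no count model was used. From the deposited values, log2(FPKM + 1) was fitted for 11757 rows whose mean reached 1 FPKM in limma 3.58.1 (R 4.3.3), with 1 mean per group over all 12 libraries, trended empirical Bayes and Benjamini-Hochberg adjustment within each contrast at 0.05. Fold changes on this scale understate changes of low genes. An exact permutation test of 3 against 3 cannot go below 0.1 and was not used. The code was tested on simulated data. Members, lists and roles were chosen with earlier results of these data known. All 41 genes may be named. Values per library are given for the 2 genes per role with the largest called difference (both where a role has 2), and the 3 with the smallest F-test p; HSPA5 was added after its values were seen. Other lists name at most 2 called genes per hairpin with the largest differences, plus CREBBP, EP300, XBP1, PRDM1 and IRF4. EIF2AK3 was added after its values were seen. Element matches used RefSeq promoters of GRCh38.p14, windows of 300 bases. The alternatives are in the closing section.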

Additional observations from a re-analysis of the deposited data

Results flagged for a closer look

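The genes below were singled out because their difference from scramble depended on which hairpin the libraries carried, by a direct limma test between hairpin labels. No group had enough libraries for an outlier test. Values are log2 differences between the libraries of 2 hairpins, except for EP300.

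Between shCREBBP.3753 and shCREBBP.1027, the libraries labelled shCREBBP.3753 were higher in MZB1 by 2.06 (adjusted p = 6.75e-08), in SSR2 by 1.07 (adjusted p = 4.33e-05), in SEL1L by 0.93 (adjusted p = 1.79e-05), in SSR3 by 0.85 (adjusted p = 3.09e-05) and in FKBP11 by 0.38 (adjusted p = 0.0107).

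Between shCREBBP.572 and shCREBBP.3753, the difference was -1.33 for DNAJB9 (adjusted p = 0.00157) and -0.46 for ATF6 (adjusted p = 0.0021), both lower with shCREBBP.572. It was 0.79 for ERN1 (adjusted p = 0.00298) and 0.57 for DERL3 (adjusted p = 0.0236), both higher with shCREBBP.572.

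Between shCREBBP.572 and shCREBBP.1027, the difference was -0.81 for SYVN1 (adjusted p = 0.0111) and -0.46 for KDELR2 (adjusted p = 0.000215), both lower with shCREBBP.572, and 0.29 for SEC24D (adjusted p = 0.00298). EP300, the paralog of CREBBP, fell by 0.90 from scramble with shCREBBP.3753 (adjusted p = 0.0349), from scramble values of 24.6, 10.7 and 8.49 FPKM to 6.56, 7.10 and 6.16.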

How the results depend on the processing

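The counts of genes lower with shCREBBP.1027 and shCREBBP.572 stayed within 1.5 times their value under every alternative, at 23 to 27 and 22 to 28 when 1 library was left out. In the main fit 22.7% and 10.8% of all rows fell with these labels. The count lower with shCREBBP.3753 was 25 with array weights (20.8% of all rows), 8 in a fit of only the 6 libraries compared (8.44% of all rows), and 9 to 20 with 1 library left out. Genes higher with shCREBBP.1027 numbered 3 with upper quartile scaling, 4 with quantile normalization and 1 to 2 with 1 library left out. Of all rows, 22.4% and 23.2% were higher under the scaling and the normalization. Genes higher with shCREBBP.3753 numbered 2 (beside 17.4% of all rows), 2 (beside 18.5%) and 1 to 2 under the same settings. These scalings moved the median of all rows by under 0.1. For single named genes, 869 of 894 alternative values kept direction and side of the threshold, 8 lost the call, 6 gained it and 11 changed sign. Only differences that had not been called changed sign: KDELR2 with shCREBBP.1027 was 0.061 with upper quartile scaling, 0.053 with quantile normalization and -0.0596 to 0.0125 with 1 library left out; DNAJB9 with shCREBBP.3753 was -0.023 and -0.0193 with these scalings, -0.16 with array weights and -0.108 to 0.114 with 1 library left out. With 1 library left out, ERN1 with shCREBBP.572 ranged from -0.315 to 0.0513 and KDELR2 with shCREBBP.3753 from -0.0693 to 0.0028. In the fit of 6 libraries, SYVN1 with shCREBBP.3753, MZB1 with shCREBBP.572 and DERL3 with shCREBBP.572 were no longer called (adjusted p = 0.0735, 0.0561 and 0.0619). The causes were not tested.

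A replicate block gave 24, 14 and 26 genes lower and 1, 1 and 0 higher, with 33 differing between hairpins. In the main fit, without a block, 22.7%, 13.2% and 10.8% of all rows fell and 56.4% differed between hairpins. The replicate numbers were not taken as pairing the libraries: of 18 same-numbered pairs, 2 correlated over 0.1, in a range of -0.06 to 0.127. Absolute depth is unknown; the steps of low values put the libraries at 1.11 to 2.0 times the depth of scramble replicate 1, but on 8.99% to 12.4% of ratios only, and did not settle that of scramble replicate 3.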
